A study of Rattus norvegicus with 18 samples.

Results

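Transcripts of the astrocyte marker genes Aldoc, Aqp4, S100b, Glul and Aldh1l1 were followed in cultures of rat oligodendrocyte progenitors (OLPs), the dividing cells that give rise to myelin-forming oligodendrocytes. The genes were chosen by symbol, as every probe whose symbol in the array annotation was one of these 5 names. Of the 5 genes, 3 had a named probe, 1 each for Aldoc (ILMN_1349452), Aqp4 (ILMN_1349349) and S100b (ILMN_1373043), among 13337 genes with a named probe on the array. No probe carried the symbol of Glul or Aldh1l1, so those genes were not analysed here. All 3 probes were detected on all 18 arrays and all 3 entered the tests.

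The cells were isolated from newborn Sprague-Dawley rat brain and were differentiated in serum-free medium, with PD169316, an inhibitor of the p38α and p38β kinases, or with its solvent DMSO as the control. Illumina rat arrays measured 6 groups of 3 samples each, namely cells at day 0, day 1 PD169316, day 1 control, day 2 PD169316, day 2 control and day 4 PD169316. No control of day 4 was analysed here, so that time in culture and inhibitor cannot be told apart at day 4. Nothing in the labels ties a replicate to a culture of its own. The p-values therefore rest on the spread between the samples given, and this spread may be technical.

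Astrocytes are the glial cells that take up glutamate and potassium, supply neurons with metabolites and line blood vessels with their endfeet. They are the main cells left behind when OLPs are shaken off a mixed glial culture, and they are a usual minor cell type in OLP cultures. By antibody staining, the authors describe their day 0 cultures as nearly all progenitors. Astrocytes, microglia and more mature oligodendrocytes were a small minority. Markers of astrocytes differ in how well they separate these lineages, since S100b and Glul are also made by oligodendrocyte lineage cells. Aldoc encodes the brain form of aldolase, an enzyme of glycolysis, and Aqp4 the water channel of the endfeet. S100b encodes a calcium-binding protein of the S100 family, Glul glutamine synthetase, and Aldh1l1 a folate enzyme.

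Promoter windows of Aldoc and S100b are shown because these genes had the same high and low arrays at day 2. They are RefSeq sequences of build GRCr8 that run 250 bases before to 50 bases after the start site, 5′ to 3′ on the gene's own strand. The Aldoc window lies at chr10:63715294-63715593 on the plus strand and the S100b window at chr20:12381032-12381331 on the minus strand. Capitals mark every match, on either strand, to the motifs named after the sequences.
Aldoc: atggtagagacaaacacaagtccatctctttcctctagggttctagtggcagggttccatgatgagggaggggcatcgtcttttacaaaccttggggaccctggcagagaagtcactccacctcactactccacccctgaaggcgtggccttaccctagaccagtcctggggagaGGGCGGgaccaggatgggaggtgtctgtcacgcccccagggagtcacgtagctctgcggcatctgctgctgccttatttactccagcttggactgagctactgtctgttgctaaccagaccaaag
S100b: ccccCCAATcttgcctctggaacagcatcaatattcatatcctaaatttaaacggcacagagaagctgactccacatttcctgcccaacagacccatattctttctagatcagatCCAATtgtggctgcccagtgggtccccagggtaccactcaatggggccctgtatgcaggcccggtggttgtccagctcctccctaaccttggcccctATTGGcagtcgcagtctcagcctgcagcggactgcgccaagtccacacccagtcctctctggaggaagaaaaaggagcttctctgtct
The motifs were the GC box (GGGCGG, in 33.1% of all 33469 rat windows of this length), the CCAAT box (CCAAT, 37.5%), the TATA box (TATAAA, 14.2%), the STAT site (TTCNNNGAA, 8.87%) and a SOX site (ACAAAG, 18.8%). Aldoc had 1 GC box, at position -75 from the start site, and none of the others. S100b had 3 CCAAT boxes, at positions -246, -135 and -38, and none of the others. The letters that matched therefore differed between these genes. Aqp4 had 2 windows, 1 with a GC box at -126 and a CCAAT box at -20, and the other with only a SOX match at -100. A match describes the letters of the window and is not a measured site.

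Levels are given as normalized log2 intensity, which was corrected for background with the detection p-values and quantile normalized between arrays. A call is an adjusted p under 0.05 in limma, fitted to all 18 arrays and adjusted over the 10574 probes tested. Each value rested on 25 to 47 beads for Aldoc, 34 to 57 for S100b and 39 to 60 for Aqp4. The standard error over beads was at most 3.01% of the intensity for Aldoc, 4.00% for S100b and 5.25% for Aqp4. Aqp4 was dim, with intensities of 149 to 369 against array medians of 121 to 149, and the log2 differences of such a probe depend on the background correction. The same limit holds for S100a3, Gjb6, Dmd and Agt, named below. On their lowest arrays they were at 4.68, 5.10, 5.56 and 6.20, against 6.32 for Aqp4. In these bulk samples, fewer cells of a type and less RNA per cell cannot be told apart.

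Replicate arrays of a group correlated at 0.980 to 0.997 over the probes, and no arrays were identical. At day 2, however, an array of each group lay nearer to the other label. The library labelled day 2 PD169316 replicate 1 had a correlation of 0.980 to 0.983 with the other arrays of its label, and of 0.994 with day 2 control replicate 2. The library labelled day 2 control replicate 3 had 0.986 to 0.987 with those of its label, and 0.997 with day 2 PD169316 replicate 2. The data thus go against these labels, and whether the labels were exchanged was not tested. Every value of a day 2 group below takes the labels as given, and for the main results values without these libraries are given too. The libraries were picked on the values of the same arrays, so calls without them are not an independent check.

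Aldoc fell during differentiation, and it was lower at every later time than at day 0 in each of the samples. Its log2 intensity was 14.49, 14.35 and 14.34 at day 0. At day 1 it was 13.77, 13.81 and 13.75 in PD169316 and 14, 14.16 and 14.14 in control. The day 1 arrays all lay below those of day 0, with PD169316 below control and no overlap. The 2 groups of day 1 did not overlap for 41.5% of all probes. At day 2 it was 12.48, 13.79 and 13.93 in PD169316 and 12.65, 12.63 and 13.76 in control. At day 4 it was 13.02, 12.45 and 13.03 in PD169316. From day 2 on the arrays of a group no longer lay close together, as the plot of each gene by array shows.

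**Figure D1:**
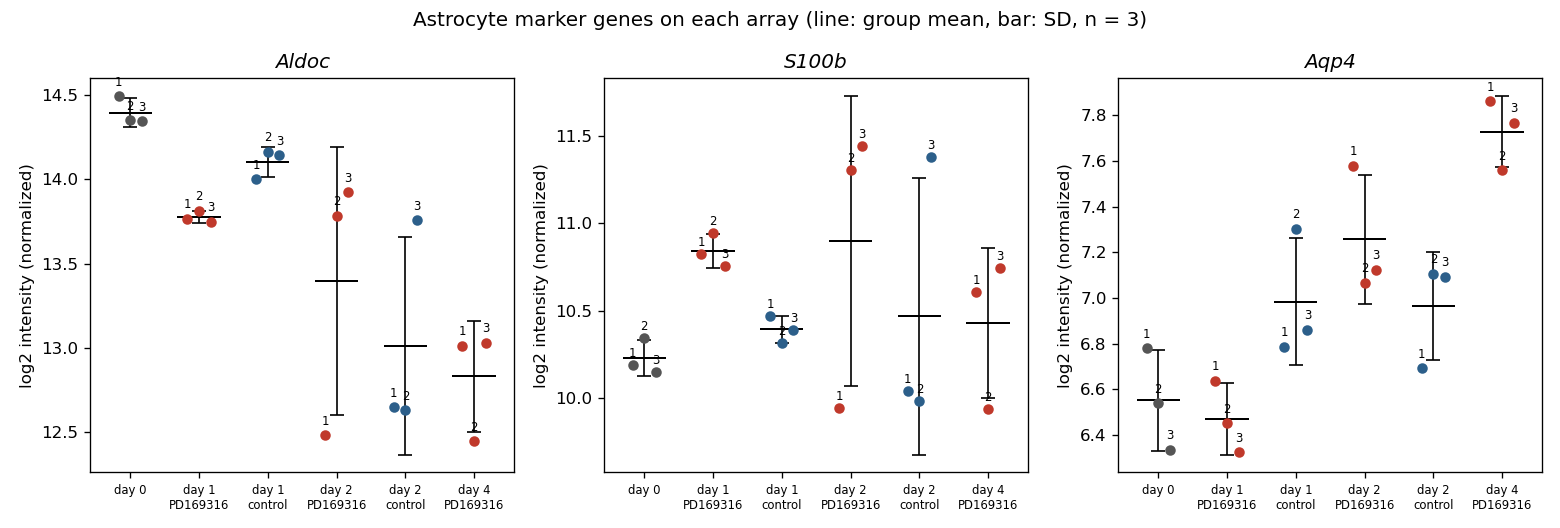
Normalized log2 intensity of Aldoc, S100b and Aqp4 on each of the 18 arrays, by group, with the replicate number above each point; lines are group means and bars SDs (n = 3). At day 2, PD169316 replicate 1 lies with control replicates 1 and 2, and control replicate 3 with PD169316 replicates 2 and 3, for Aldoc and S100b but not for Aqp4.

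Against day 0, Aldoc was called lower at day 2 in control and at day 4 in PD169316. Its mean was 13.01 ± 0.64 in day 2 control and 14.40 ± 0.08 at day 0 (SD, n = 3 each), a log2 difference of -1.38 (SE 0.33) with a limma adjusted p of 0.00324. This is 2.61-fold lower, and the adjusted p was at most 0.0206 when any 1 library was left out. Without both libraries that lay near the other label the difference was -1.76 (adjusted p 2.53e-07). This p-value is too small, since the libraries were picked on the values of the same arrays. Mean Aldoc was 12.83 ± 0.33 in day 4 PD169316, a log2 difference from day 0 of -1.56 (SE 0.33, adjusted p 0.00097), or 2.96-fold lower. Aldoc was thus called in both comparisons against day 0, in which 42.2% (day 2 control) and 50.7% (day 4 PD169316) of all probes were called. With 1 of 3 genes called at day 2 and 2 of 3 at day 4, the share of these markers was near that of all probes.

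The step within the controls was less firm. Aldoc was lower in day 2 control than in day 1 control (mean 14.10 ± 0.09), by a log2 difference of -1.09 (SE 0.33) with an adjusted p of 0.0305. It was the 1 gene of the 3 called, against 17.4% of all probes. The adjusted p was 0.0647, 0.0808 and 0.0805 without day 1 control replicates 1, 2 and 3, and 0.129 and 0.128 without day 2 control replicates 1 and 2. Without both libraries that lay near the other label, the difference was -1.46. Between day 0 and day 1 control the log2 difference of Aldoc was -0.29 (95% interval -0.99 to 0.40, adjusted p 0.539), and none of the 3 genes was called, against 27.1% of all probes. With only the arrays compared Aldoc was called here (adjusted p 0.0311).

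Markers of OLPs moved in the same direction over these times. Of the 9 tested, which include Pdgfra, the receptor for the OLP mitogen PDGF-AA, all 9 were lower in day 2 control and in day 4 PD169316 than at day 0. The mean of the list was 9.94 to 10.66 in day 2 control and 9.85 to 10.09 in day 4 PD169316, against 11.54 to 11.65 at day 0. Of 13 neuronal markers, 8 were lower and 2 higher in day 2 control than at day 0, and 7 were lower and 2 higher in day 4 PD169316. Of 11 microglial markers, 1 was lower in day 2 control and 9 were lower in day 4 PD169316, and none was higher. The mean of this list was 9.39, 10.41 and 9.41 in day 4 PD169316, against 10.43 to 10.76 at day 0. Replicate 2 of day 4 thus lay close to day 0. Of all probes, 42.2% were called in day 2 control and 50.7% in day 4 PD169316 against day 0. The part of these cell types in the fall of Aldoc was not tested. The genes whose log2 intensity followed Aldoc most closely over the 18 arrays, of 7719 compared, were Septin8 (Pearson r 0.987), Swap70 (0.981), Kctd15 (0.977), Gria2 (0.975), a subunit of AMPA-type glutamate receptors, and Psph (0.975), an enzyme of serine synthesis. These correlations describe arrays that share their groups and the day 2 split.

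Most glycolysis genes that were called had the opposite sign to Aldoc. Of 23 in the list, 15 were tested, and in day 4 PD169316 8 were higher and 2 lower than at day 0, with a median log2 difference of 0.32 against -0.03 over all probes. These calls stand beside 50.7% of all probes called. Slc16a1, a lactate transporter, was 1.86 higher on the log2 scale (adjusted p 4.07e-08), and Eno2, the neuronal enolase, was 1.59 higher (adjusted p 2.38e-05). Ldha, the lactate dehydrogenase subunit of muscle type, was 0.98 higher (adjusted p 0.0007), while Ldhb, the heart-type subunit, had a log2 difference of -0.66 (adjusted p 0.0124). Aldoa, the aldolase most tissues use, was 0.59 higher in day 4 PD169316 than at day 0 (adjusted p 0.000526).

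S100b was not called in any comparison over all 18 arrays. Its log2 intensity was 10.19, 10.35 and 10.15 at day 0. At day 1 it was 10.82, 10.94 and 10.75 in PD169316 and 10.47, 10.32 and 10.39 in control. All PD169316 arrays of day 1 lay above all arrays of day 1 control and of day 0. Between PD169316 and control at day 1, 41.5% of all probes did not overlap. At day 2 it was 9.94, 11.31 and 11.44 in PD169316 and 10.04, 9.98 and 11.38 in control, and at day 4 it was 10.61, 9.94 and 10.74 in PD169316. The highest and the lowest S100b values of day 2 were each found under both labels.

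Group means of S100b were 10.23 ± 0.10 at day 0, 10.84 ± 0.10 in day 1 PD169316, 10.39 ± 0.08 in day 1 control, 10.90 ± 0.83 in day 2 PD169316, 10.47 ± 0.79 in day 2 control and 10.43 ± 0.43 in day 4 PD169316 (SD, n = 3 each). In order of these means, no neighbouring groups differed beyond their spread, since each 95% interval of the difference included 0. The log2 difference from day 0 was 0.20 in day 4 PD169316 (95% interval -0.59 to 0.99, adjusted p 0.675). In day 2 control it was 0.24 (-0.55 to 1.03, adjusted p 0.628), and -0.22 without day 2 control replicate 3. The genes most like S100b over the 18 arrays were Rragd (r 0.908), a GTPase of amino acid sensing, Plcd4 (0.882), a phospholipase C, Sdc2 (0.882), a heparan sulfate proteoglycan, Wdfy1 (0.881) and Gpr137c (0.879).

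Of 15 S100 genes, the relatives of S100b, 8 were tested, and 4 were higher and 1 lower in day 4 PD169316 than at day 0 (median log2 difference 0.55 against -0.03 over all probes). These 5 calls of 8 stand beside 50.7% of all probes called. S100a16 had a log2 difference of 2.58 (adjusted p 1.02e-10) and S100a6 of 1.57 (adjusted p 0.000205), whereas S100a3, a dim probe, had -1.32 (adjusted p 2.35e-05).

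Aqp4 was higher at day 4 in PD169316 than at day 0. Its log2 intensity was 6.78, 6.54 and 6.33 at day 0. At day 1 it was 6.64, 6.45 and 6.32 in PD169316 and 6.79, 7.30 and 6.86 in control. All PD169316 arrays of day 1 were below all control arrays, by a narrow margin, and they overlapped those of day 0. Of all probes, 41.5% did not overlap between PD169316 and control at day 1. At day 2 it was 7.58, 7.07 and 7.12 in PD169316 and 6.69, 7.11 and 7.09 in control, and at day 4 it was 7.86, 7.56 and 7.77 in PD169316. Every array of day 4 was above every array of day 0, and for 62.1% of all probes these groups did not overlap. The day 2 groups overlapped.

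Mean Aqp4 was 7.73 ± 0.15 in day 4 PD169316 and 6.55 ± 0.22 at day 0 (SD, n = 3 each), a log2 difference of 1.18 (SE 0.17) with a limma adjusted p of 5.01e-05, or 2.26-fold higher. The call stood when any 1 library was left out, with differences of 1.07 to 1.29. Its size moved with the background correction, and it was 0.61 on the deposited intensities (adjusted p 0.00217), 0.65 with no background correction (adjusted p 2.92e-05) and 0.94 with an offset of 50 (adjusted p 2.87e-05). Mean Aqp4 was 6.96 ± 0.24 in day 2 control, and the log2 difference from day 0 was 0.41 (95% interval 0.04 to 0.78, adjusted p 0.0678). This was called without day 0 replicate 1 (0.53, adjusted p 0.0434), without day 2 PD169316 replicate 1 (0.41, adjusted p 0.0419) or without day 2 control replicate 1 (0.55, adjusted p 0.0341). It was -0.03 on the deposited intensities. In day 1 control (6.98 ± 0.28) the log2 difference from day 0 was 0.43 (95% interval 0.06 to 0.80, adjusted p 0.0766), and it was -0.03 on the deposited intensities. It was called without day 2 PD169316 replicate 1 (0.43, adjusted p 0.0467), and also without both libraries that lay near the other label (0.43, adjusted p 0.0436).

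From day 2 to day 4 within PD169316, Aqp4 had a log2 difference of 0.47 (95% interval 0.10 to 0.84, adjusted p 0.0606), Aldoc of -0.57 (-1.26 to 0.13, adjusted p 0.219) and S100b of -0.47 (-1.26 to 0.32, adjusted p 0.379). None of the 3 was called, against 23.2% of all probes. Without day 2 PD169316 replicate 1 all 3 were called, at 0.63 for Aqp4 (adjusted p 0.0113), -1.03 for Aldoc (adjusted p 0.00699) and -0.95 for S100b (adjusted p 0.0312). Without day 1 control replicate 2, Aqp4 alone was called (0.47, adjusted p 0.0469). The share of all probes called without either of these libraries alone is not given here, so these counts are not read as a trait of the genes. Without both libraries that lay near the other label all 3 were called, against 41.4% of all probes. Day 2 PD169316 replicate 1 was picked on the values of the same arrays. The p-values without it are therefore too small, and the calls follow in part from the choice.

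The dystrophin complex anchors the channel in the endfoot membrane, and of 20 genes of aquaporins and this complex 7 were tested. In day 4 PD169316, 4 were higher than at day 0 and none lower, with a median log2 difference of 0.57 over the 7 against -0.03 over all probes. These 4 calls of 7 stand beside 50.7% of all probes called. The 4 were Mlc1, a membrane protein of astrocyte endfeet (1.33, adjusted p 1.06e-05), Dmd, dystrophin (1.06, adjusted p 3.93e-05), Aqp11, an aquaporin of intracellular membranes (0.59, adjusted p 0.00203) and Dag1, dystroglycan (0.25, adjusted p 0.0294). Dmd was also among the genes most like Aqp4 over the 18 arrays, with r 0.862. The others were P4ha1 (0.863), a collagen prolyl hydroxylase, Ccdc175 (0.860), Trim59 (0.860) and Abhd5 (0.859), a co-activator of triglyceride breakdown.

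**Figure D2:**
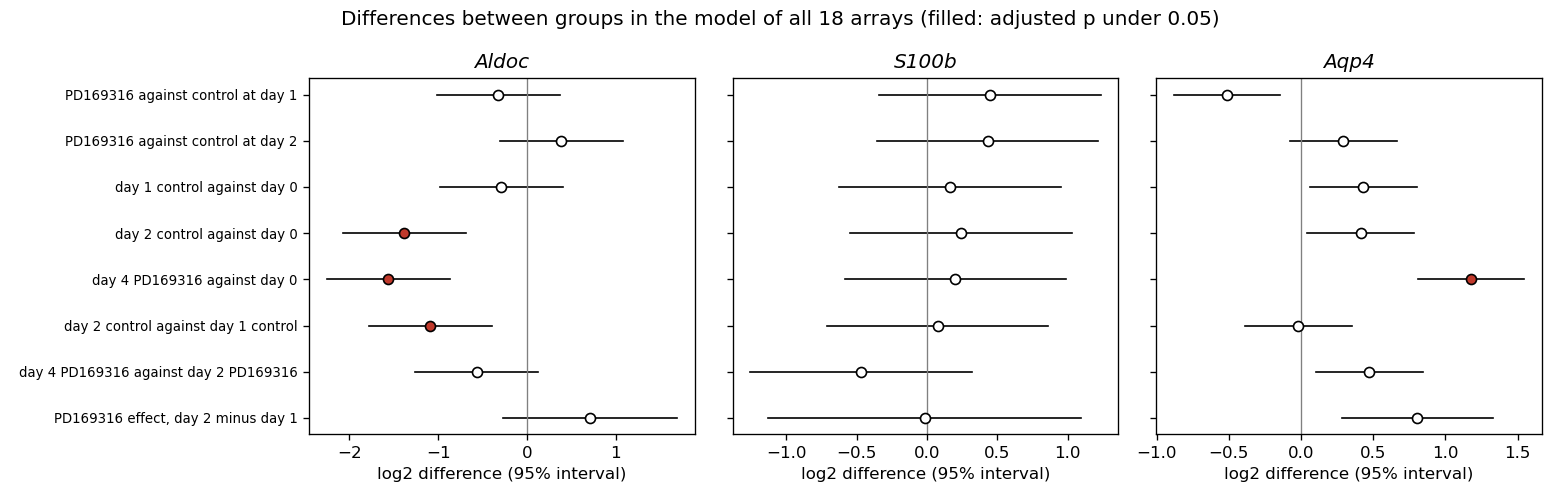
Log2 differences of Aldoc, S100b and Aqp4 in the 8 comparisons, with 95% intervals from the model of all 18 arrays; filled points have an adjusted p under 0.05. Aldoc is called in 3 comparisons (-1.38, -1.56 and -1.09), Aqp4 in 1 (1.18) and S100b in none.

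The comparison of PD169316 with control asked what p38 inhibition did to these transcripts. At day 1 the direction differed between the genes, and the groups did not overlap for any of the 3, as for 41.5% of all probes. Aldoc averaged 13.78 ± 0.03 in PD169316 and 14.10 ± 0.09 in control (SD, n = 3 each), a log2 difference of -0.33 (95% interval -1.02 to 0.37, adjusted p 0.556). Aqp4 averaged 6.47 ± 0.16 in PD169316 and 6.98 ± 0.28 in control, a difference of -0.51 (-0.88 to -0.14, adjusted p 0.0706). S100b was the 1 gene with the opposite sign, at 0.45 (-0.34 to 1.23, adjusted p 0.472). None of the 3 was called, against 11.1% of all probes.

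The day 1 calls differed between sets of arrays. The fit takes 1 spread per gene from all groups, and for Aldoc and S100b the SD was 0.64 to 0.83 at day 2 against at most 0.10 at day 1. With only the arrays compared, Aldoc (adjusted p 0.0177) and S100b (adjusted p 0.00827) were called and Aqp4 was not (adjusted p 0.0531), while 21.4% of all probes were called. Without the 6 day 2 libraries, Aqp4 was called (-0.52, adjusted p 0.0345) and Aldoc (adjusted p 0.105) and S100b (adjusted p 0.0778) were not, with 21.2% of all probes called. Aqp4 was also called without day 2 PD169316 replicate 1 alone (-0.51, adjusted p 0.0377). The size of each difference barely moved between these fits, and why the calls changed was not tested.

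At day 2 none of the 3 genes was called between PD169316 and control, and no probe of the array was (0%, limma), although 469 of 10574 had an unadjusted p under 0.05. The log2 difference was 0.38 for Aldoc (95% interval -0.31 to 1.08), 0.43 for S100b (-0.36 to 1.22) and 0.29 for Aqp4 (-0.08 to 0.66), each with an adjusted p of 0.888. The groups overlapped for all 3.

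The day 2 arrays split by array and not by label for Aldoc and S100b. In both genes the 3 upper arrays were PD169316 replicates 2 and 3 and control replicate 3, and the 3 lower arrays were PD169316 replicate 1 and control replicates 1 and 2. The lowest upper array of Aldoc was at 13.76 and the highest lower array at 12.65, a gap of 1.11. For S100b these arrays were at 11.31 and 10.04, a gap of 1.27. The deposited intensities, before any normalization, showed the same split. Aldoc read 4877, 14694 and 14103 in PD169316 and 5550, 6458 and 12733 in control, and S100b read 922, 2772 and 2599 in PD169316 and 963, 1073 and 2510 in control. Aqp4 had no such split, with PD169316 replicate 1 highest at 7.58 and the other 5 arrays between 6.69 and 7.12.

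**Figure D3:**
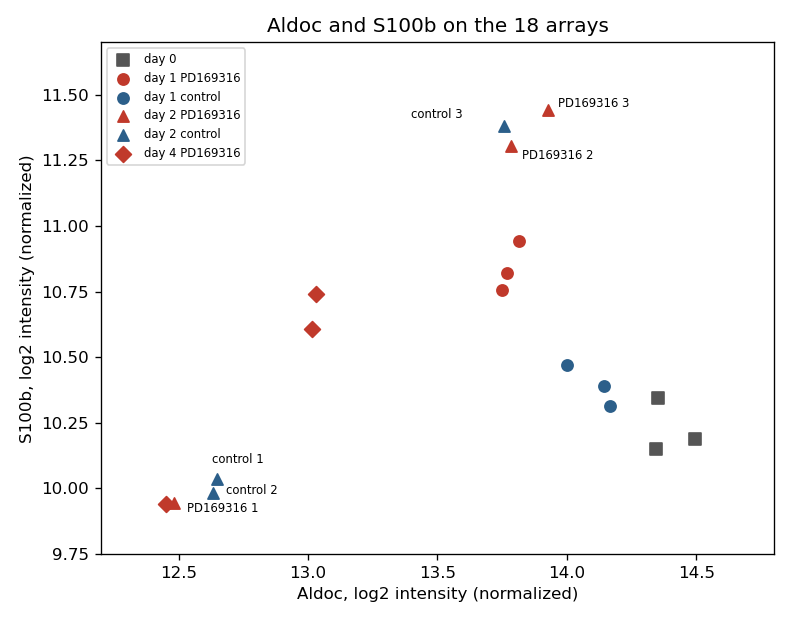
S100b against Aldoc, both as normalized log2 intensity, on the 18 arrays; colour and marker give the group, and the day 2 arrays are named. The 6 day 2 arrays form an upper and a lower set of 3, each holding both labels, and day 4 PD169316 replicate 2 (12.45 for Aldoc, 9.94 for S100b) lies beside the lower set.

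Other markers split by the same arrays at day 2, some in each direction. Gfap, the astrocyte intermediate filament, read 13.60, 13.84 and 13.90 in PD169316 and 13.51, 13.37 and 13.88 in control. Acsbg1, an acyl-CoA synthetase, read 9.77, 10.73 and 10.74 in PD169316 and 10.01, 9.97 and 10.83 in control. Both had the same upper 3 arrays as Aldoc and S100b, whereas Slc39a12, a zinc transporter on the astrocyte list, was the reverse, at 9.31, 8.02 and 8 in PD169316 and 9.35, 9.21 and 8.24 in control. Htra1 and Ttyh1, also on that list, had the same lower arrays as Slc39a12. The mean of 32 further astrocyte markers was 9.21, 9.63 and 9.60 in PD169316 and 9.22, 9.19 and 9.56 in control. The mean of the 9 OLP markers was 10.10, 10.69 and 10.56 in PD169316 and 9.96, 9.94 and 10.66 in control, with the same upper 3 arrays. The mean of 11 microglial markers ranked these 3 arrays highest too, at 10.07, 10.39 and 10.37 in PD169316 and 10.32, 10.22 and 10.58 in control. It showed no clear split, since 10.37 and 10.32 lay close together. The mean of 10 reactive astrocyte genes was the reverse, at 9.47, 9.05 and 9.05 in PD169316 and 9.40, 9.41 and 9.12 in control. Myelin genes were also the reverse, with a mean over 15 genes of 10.94, 10.30 and 10.29 in PD169316 and 10.88, 10.79 and 10.35 in control. The part of these cell types in the split of Aldoc and S100b was not tested.

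Leaving out both libraries that lay near the other label left 2 arrays a group at day 2. The log2 difference between PD169316 and control was then 1.21 for Aldoc (adjusted p 0.000129), 1.37 for S100b (adjusted p 0.000264) and 0.20 for Aqp4 (adjusted p 0.515), with 23.4% of all probes called. These libraries were picked on the values of the same arrays, so the p-values are too small and the separation of Aldoc and S100b follows from the choice. Leaving out any 1 of the 18 libraries brought no call of these genes between PD169316 and control at day 2, and Aldoc then differed by 0.12 to 0.84 and S100b by 0.16 to 0.91.

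Whether the effect of PD169316 differed between the days was tested as day 2 minus day 1. The difference was 0.80 for Aqp4 (95% interval 0.28 to 1.33, adjusted p 0.0844), 0.71 for Aldoc (-0.27 to 1.69, adjusted p 0.472) and -0.02 for S100b (-1.13 to 1.10, adjusted p 0.992). None of the 3 was called, against 3.85% of all probes. Without both libraries that lay near the other label it was 1.54 for Aldoc (adjusted p 0.000263), 0.92 for S100b (adjusted p 0.023) and 0.71 for Aqp4 (adjusted p 0.0715), with 15.1% of all probes called. The same limit holds for these p-values.

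In order of group means, Aldoc ran from day 0 (14.40) through day 1 control, day 1 PD169316, day 2 PD169316 and day 2 control to day 4 PD169316 (12.83). Each neighbouring pair had a 95% interval that included 0. For Aqp4 the order ran from day 4 PD169316 (7.73) through day 2 PD169316 (7.26), day 1 control (6.98), day 2 control (6.96) and day 0 (6.55) to day 1 PD169316 (6.47). Of its neighbours, only day 4 and day 2 PD169316 (0.47, 95% interval 0.10 to 0.84) and day 2 control and day 0 (0.41, 0.04 to 0.78) had intervals that excluded 0, and neither pair was called over all probes. Comparisons that share day 0 or a control are not independent of each other.

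The label of astrocyte marker was checked on 45 further astrocyte genes, of which 37 had a named probe and 32 were tested. Gfap and Slc1a3, a glutamate transporter of astrocytes, passed the detection filter, with group means of 13.53 to 14.14 and of 11.46 to 12.12. The 5 listed genes with a probe that did not pass it were Btbd17, Chrdl1, Kcnj16, Rgs20 and Slc7a10. Markers of OLPs, myelin, microglia and neurons passed it too, and of 10 endothelial markers only 3 were tested, with a list mean of at most 6.59 on any array.

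The astrocyte genes did not move as 1 group. In day 4 PD169316, 10 of the 32 were higher and 10 lower than at day 0, with a median log2 difference of -0.17 and 50.7% of all probes called. Aldh1a1, a retinaldehyde dehydrogenase, was 2.99 higher (adjusted p 5.06e-08), Slc39a12 2.06 higher (adjusted p 6.98e-05) and Acsbg1 1.61 higher (adjusted p 8.28e-05). Mfge8, a secreted bridging protein of phagocytosis, lay at the other end, with a log2 difference of -1.62 (adjusted p 2.35e-05). In day 2 control 7 were higher and 4 lower than at day 0, and in day 1 control 7 were higher and 5 lower. Of all probes, 42.2% and 27.1% were called in these comparisons. From day 1 to day 2 control 4 were higher and 3 lower, and from day 2 to day 4 within PD169316 3 were higher and 2 lower. Here 17.4% and 23.2% of all probes were called. Without both libraries that lay near the other label, these counts were 9 and 11 for day 2 control against day 0, 9 and 8 for day 1 control against day 0, 5 and 9 for day 2 against day 1 control and 4 and 12 for day 4 against day 2 PD169316. The last of these stands beside 41.4% of all probes called, and for the others that share is not given here. In day 4 PD169316 against day 0, Aqp4 was thus on the side of Aldh1a1 and Acsbg1 and Aldoc on that of Mfge8. Of 10 reactive astrocyte genes tested, 1 was higher in day 4 PD169316 than at day 0, Timp1, a protease inhibitor (1.29, adjusted p 3.83e-06), and 4 were lower, among them Emp1, a membrane protein (-0.95, adjusted p 3.46e-05). The share of reactive genes called was near the 50.7% of all probes.

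**Figure D4:**
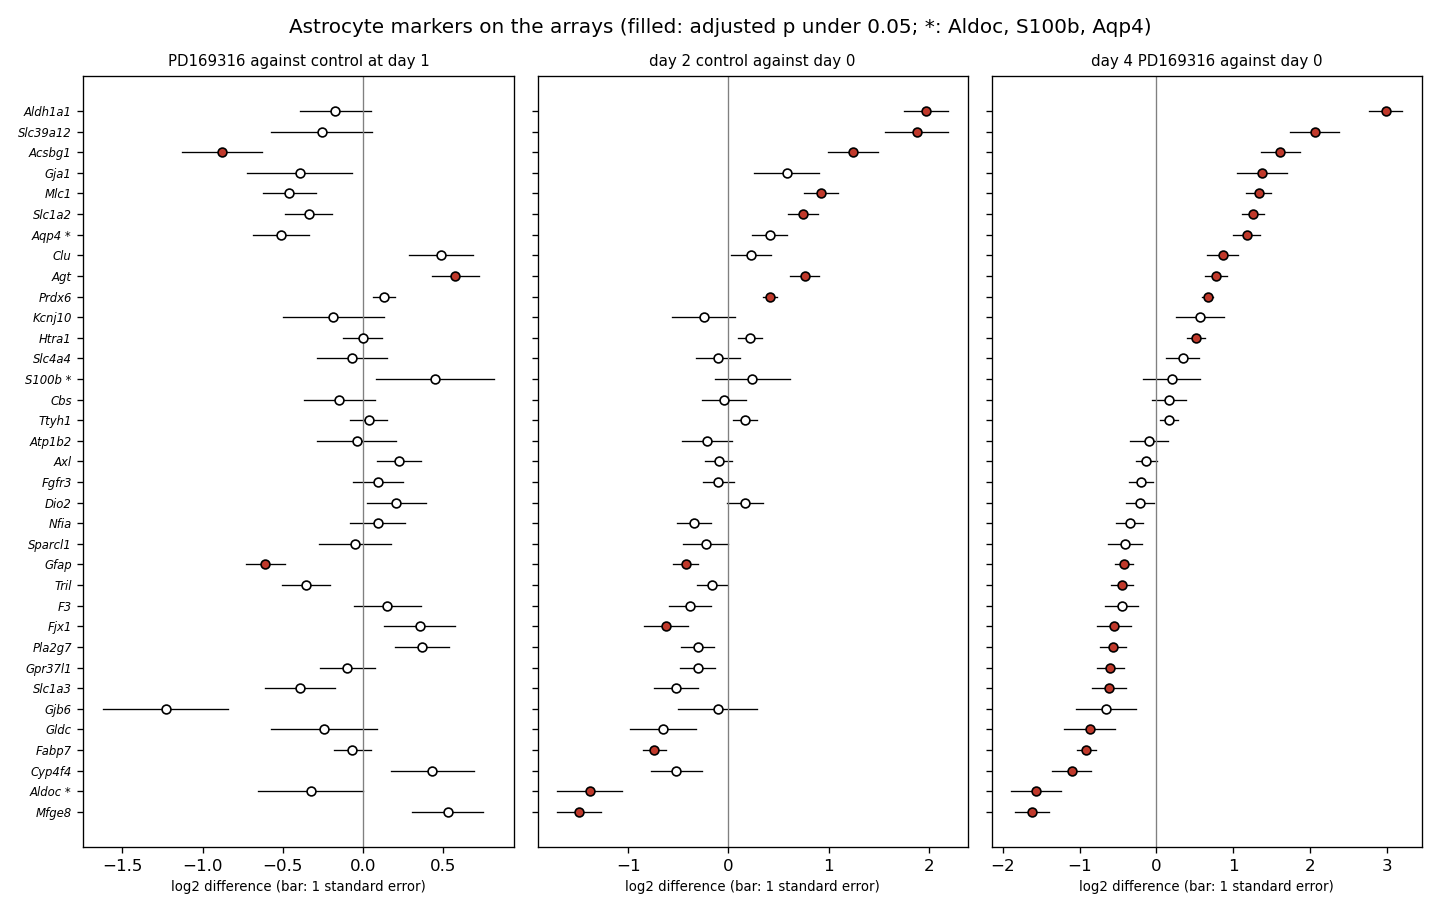
Log2 differences of the 32 further astrocyte markers and of Aldoc, S100b and Aqp4 (asterisks) in 3 comparisons, sorted by the difference of day 4 PD169316 from day 0; bars are 1 standard error and filled points have an adjusted p under 0.05. Aldh1a1 (2.99) and Mfge8 stand at the ends of the order, Aqp4 (1.18) near the top and Aldoc (-1.56) next to the bottom.

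Between PD169316 and control at day 1, 1 of the 32 astrocyte genes was higher and 2 were lower, a share near the 11.1% of all probes. Agt, angiotensinogen, had a log2 difference of 0.58 (adjusted p 0.0176). Acsbg1 had -0.88 (adjusted p 0.0338) and Gfap -0.61 (adjusted p 0.00437), the same sign as Aldoc and Aqp4. Without the 6 day 2 libraries 3 were higher and 5 lower, with 21.2% of all probes called. At day 2 none was called, with a median log2 difference of 0.18 against 0.00 over all probes. With both libraries near the other label left out, 17 were higher and 3 lower at day 2 (Slc39a12, Htra1 and Ttyh1), with a median of 0.50 and 23.4% of all probes called. The difference between the days was called for Gjb6, a gap junction protein (2.13, adjusted p 0.0441), and for Gfap (0.80, adjusted p 0.0157), both towards higher in PD169316 at day 2. These 2 calls of 32 stand beside 3.85% of all probes, and with both libraries left out 12 were called higher and 2 lower, beside 15.1% of all probes. Both libraries were picked on the values of the same arrays. The day 2 counts without them therefore follow in part from the choice and do not test an effect of PD169316.

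For Glul and Aldh1l1, which no named probe covered, other genes of their pathways were measured. Of 22 genes of glutamate, glutamine and ammonia handling, to which Glul belongs, 19 were tested. In day 4 PD169316, 3 of the 19 were higher and 9 lower than at day 0 (median log2 difference -0.24), and at day 1 3 were higher in PD169316 than in control and none lower. Of all probes, 50.7% and 11.1% were called in these comparisons. Of 21 folate and one-carbon enzymes, to which Aldh1l1 belongs, 13 were tested. In day 4 PD169316, 3 of these were higher and 2 lower than at day 0, and in day 2 control 5 were higher and none lower. The folate counts were no larger than the shares of all probes called, 50.7% and 42.2%. Without both libraries that lay near the other label, the folate counts were 5 and 3 in day 4 PD169316 and 7 and 2 in day 2 control. The share of all probes is not given here for those fits.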

How the data were processed

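Total RNA from the cultures was labelled as cRNA by the authors and hybridized to Illumina RatRef-12 arrays. The deposited intensity is the mean bead signal of a probe, with no background subtracted and no normalization between arrays. Each deposited detection p-value compares a probe with the negative control beads of its array. The bead number and bead standard error deposited beside them are counts of beads and intensities. The scanner software is not given in the sources used here. The deposited value table equalled the intensities in all 405414 values.

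Of 22523 probes, 13793 had 1 gene symbol in the platform annotation, 8730 had none and 0 had several, and an array detected 9789 to 10773 probes. Intensities were corrected by normexp with the detection p-values, an offset of 16 was added, and values were quantile normalized and taken to log2 (neqc in limma 3.58.1, R 4.3.3). A probe was kept if its detection p was below 0.01 on each of the 3 arrays of at least 1 group. The 10574 kept were tested with limma over 6 groups and 8 comparisons, with Benjamini-Hochberg adjustment. A list gene with several probes was represented by its brightest one. The script was tested on simulated data. The genes and the 14 lists were chosen with earlier results of these data known. Named beyond the 5 genes were at most 4 called genes per list with the greatest change, and the 5 genes most correlated with each gene, while Gfap, Slc1a3, Pdgfra, Htra1, Ttyh1, Aldoa and Ldhb were named outside this rule after their values were seen. Alternatives were other background corrections, scalings, filters, offsets, thresholds and sets of arrays, and the fits of marker lists without day 2 libraries were added after seeing the data. The number of arrays limits the precision.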

Additional observations from a re-analysis of the deposited data

How the results depend on the processing

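Over all alternatives, single-gene results kept direction and side of the threshold 648 times, passed it 31 times, lost it 9 times and changed sign 17 times. The cause of these changes was not tested. A result that changed sign was counted only there, even if it also passed the threshold. S100b did both for the difference of the PD169316 effect without both day 2 libraries near the other label. Counts of the 3 genes called follow, and the share of all probes called moved too. Between PD169316 and control at day 1 it was 11.1%, 21.4% with only the arrays compared and 21.2% without all 6 day 2 libraries. Without both libraries it rose from 23.2% to 41.4% for day 4 against day 2 PD169316. For PD169316 against control at day 2 it then rose from 0% to 23.4%. For the difference of the effect it rose from 3.85% to 15.1%. For other alternatives the share is not given here. For day 4 against day 2 PD169316, 0 were called, and 1 with no background correction, the deposited values, scaling to the 75th percentile, an offset of 50 or the methods' criteria (a fold change beside an unadjusted p), 3 without both day 2 libraries near the other label, and 0 to 3 when 1 library was left out. For day 2 against day 1 control, 1 was called, and 0 with the deposited values, no filter, only the arrays compared or an adjusted p under 0.01, and 0 to 1 when 1 library was left out. For PD169316 against control at day 1, 0 were called, and 2 with only the arrays compared, 1 with the methods' criteria, 1 without both or all 6 day 2 libraries, and 0 to 1 when 1 library was left out. For day 1 control against day 0, 0 were called, and 1 with only the arrays compared, the methods' criteria, or without both or all 6 day 2 libraries, and 0 to 1 when 1 library was left out. For day 2 control against day 0, 1 was called, and 2 with the methods' criteria and 1 to 2 when 1 library was left out. For the difference of the PD169316 effect, 0 were called, and 1 with the methods' criteria and 2 without both libraries. For PD169316 against control at day 2, 0 were called, and 2 without both libraries.

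Some small differences changed sign. On the deposited values Aqp4 had -0.027 in day 1 control and -0.032 in day 2 control against day 0, S100b had -0.16 and -0.14, and the difference of the PD169316 effect on S100b was 0.057. Aqp4 had 0.015 in day 2 against day 1 control with the 75th percentile, and -0.12 to 0.14 when 1 library was left out. Without both libraries, S100b had -0.22 in day 2 control against day 0, -0.38 against day 1 control and 0.92 for the difference of the effect. When 1 library was left out these were -0.22 to 0.48, -0.38 to 0.32 and -0.29 to 0.46.

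No pairing of the samples by replicate number was seen, but the check cannot exclude one. Its extremes, -0.53 and 0.56, were both between the day 2 groups, which hold the libraries near the other label. Over 45 same-numbered pairs the correlation of deviations was -0.53 to 0.56 (median 0.02), 8 were over 0.1, and 6 of 18 arrays correlated best with their own number. With the replicate number as a block, the counts of genes called were the same in all 8 comparisons, with 1233 probes against 1171 called between PD169316 and control at day 1. Aqp4 had the lowest signal over background of the 3 genes, and the size of its differences moved with the background correction.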
